A study of Mus musculus with 55 samples.

Results

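The genes described here code for proteins that recognise introns and assemble the spliceosome: the SR proteins, the hnRNP proteins, the U2 snRNP and U2AF subunits, the Snrnp proteins and the PRP factors. They are all genes of the pre-mRNA tables whose symbol starts with Srsf, Hnrnp, Sf3a, Sf3b, Prpf, Snrnp or U2af, which selects 58 of the 9911 genes listed for CCNA-GFP cells and 58 of the 10237 listed for CTCF-AID cells. By role, 11 code for SR proteins, 17 for hnRNP proteins, 10 for U2 snRNP and U2AF subunits, 7 for snRNP proteins and 13 for PRP factors. The choice is by symbol alone, within tables that the authors had filtered at 0.5 TPM. Hnrnpa1 and Hnrnpa2b1 were not analysed here.

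SR proteins carry domains rich in arginine and serine, bind exonic sequences and recruit the splicing machinery to nearby splice sites, whereas hnRNP proteins coat nascent transcripts and often oppose exon inclusion. U2AF marks the 3′ splice site and guides the U2 snRNP, with its SF3a and SF3b subunits, to the branch point. The U1 snRNP reads the 5′ splice site, and the U4/U6.U5 tri-snRNP with the PRP factors then forms the active spliceosome. Several SR genes are known to hold ultraconserved exons that tune their own expression through nonsense-mediated decay.

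The study asked how transcription resumes when mouse embryonic stem (ES) cells leave mitosis, and whether the insulator protein CTCF is needed for it. Both lines derive from E14Tg2a ES cells of strain 129/Ola, grown in serum and LIF. CCNA-GFP cells carry a cyclin A-GFP reporter of the cell cycle, and CTCF-AID cells carry CTCF fused to a degron, so that auxin (IAA) removes the protein. Cells were held for 4 h with 10 µM of the CDK1 inhibitor RO-3306 and for a further 4 h with 50 ng/ml nocodazole, collected by shake-off, and released into fresh medium.

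The CCNA-GFP series holds 19 libraries of otherwise untreated cells: 3 asynchronous, 3 mitotic, a single 50 min library, and 2 for every other release time (20, 30, 40, 60, 90 and 120 min). The CTCF-AID series holds 36 libraries in an untreated arm (-IAA) and an auxin arm (+IAA), each with 3 asynchronous, 3 mitotic and 2 libraries at each of 20, 40, 50, 60, 90 and 120 min. In the +IAA arm 0.5 mM IAA was added for the last 2 h of nocodazole and kept through the release, and asynchronous cells received it for 4 h. Every mitotic and released library thus shares both drugs, while asynchronous cells received neither. IAA acts on the CTCF protein, so the RNA tables hold no check of its loss.

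Values are TPM, a length-normalised share of transcripts, of the unspliced isoform of each gene, and log2 differences were taken on log2(TPM + 1), which understates changes of genes near 0. The listed TPM of a library summed to between 13747 and 43370. The table holds pre-mRNA only, and each library carries a further factor that the sources used here do not name. TPM keep no read counts, so the depth behind a value is unknown and p-values measure the spread between replicate libraries of a line. Of 7 pluripotency markers 6 were listed (Pou5f1, Nanog, Esrrb, Klf4, Zfp42 and Tfcp2l1), with a summed level of 22.7 to 86.7 TPM in CCNA-GFP and 34.8 to 106.4 TPM in CTCF-AID libraries. None of 4 primitive endoderm markers was listed. T, of 3 mesoderm and primed markers, lay between 0.0266 and 1.59 TPM in CCNA-GFP and between 0.0372 and 5.18 TPM in CTCF-AID, and of 4 fibroblast markers Col1a1 and Thy1 were listed in CTCF-AID (0.146 to 3.42 TPM summed) and none in CCNA-GFP.

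The 58 genes took a larger part of the pre-mRNA pool at 40 min than in mitosis, and among their roles the SR genes moved most. All 58 genes together held 1.53% ± 0.06 (SD, n = 3) of the listed TPM in CCNA-GFP mitosis and 1.87% ± 0.03 (n = 2) at 40 min. In CTCF-AID the share was 1.68% ± 0.09 (n = 3) in mitosis and 1.96% ± 0.01 (n = 2) at 40 min without IAA. With IAA it was 1.66% ± 0.01 (n = 3) and then 1.99% in both libraries. In each arm all libraries at 40 min lay above all mitotic ones. A list of 89 other splicing genes, described at the end, went the other way, from 2.19%, 2.04% and 2.11% in mitosis to 2.07% and 2.03% at 40 min in CCNA-GFP. Its share went from 2.35%, 2.22% and 2.29% to 1.96% and 2.00% without IAA and from 2.28%, 2.23% and 2.32% to 1.99% in both libraries with IAA, with overlap between the groups in CCNA-GFP alone.

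The SR genes alone held 0.401%, 0.384% and 0.358% of the listed TPM in the CCNA-GFP mitotic libraries and 0.602% and 0.578% at 40 min. Without IAA the mitotic shares were 0.433%, 0.365% and 0.355% and those at 40 min 0.613% and 0.590%. With IAA they were 0.384%, 0.396% and 0.378% in mitosis and 0.635% and 0.611% at 40 min. By 90 min the SR share was 0.374–0.447% over the 6 libraries of the 3 arms, which overlaps both the mitotic range and the asynchronous one of 0.422% to 0.506%. Srsf1, Srsf2, Srsf3, Srsf5 and Srsf6 are 73.5% to 92.6% exonic, and the other SR genes 12.7% to 49.4%. The median of the genes listed for CCNA-GFP is 19.9%. Few intronic bases thus separate the pre-mRNA of those 5 genes from their spliced RNA, which limits what the SR share says about new transcription.

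The other roles moved less on this scale. The hnRNP share went from 0.655% ± 0.030 in mitosis to 0.765% ± 0.010 at 40 min in CCNA-GFP, and from 0.759% ± 0.021 to 0.842% ± 0.031 without IAA. The snRNP genes went the other way, from 0.101% in CCNA-GFP mitosis to 0.0930% at 40 min. U2 snRNP and U2AF genes stayed between 0.205% and 0.223%, and PRP factors between 0.191% and 0.216%, as means over the mitotic and 40 min groups of the 3 arms. These are shares of a bulk pool, in which fewer cells that have left mitosis and less pre-mRNA per cell cannot be told apart.

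**Figure D1:**
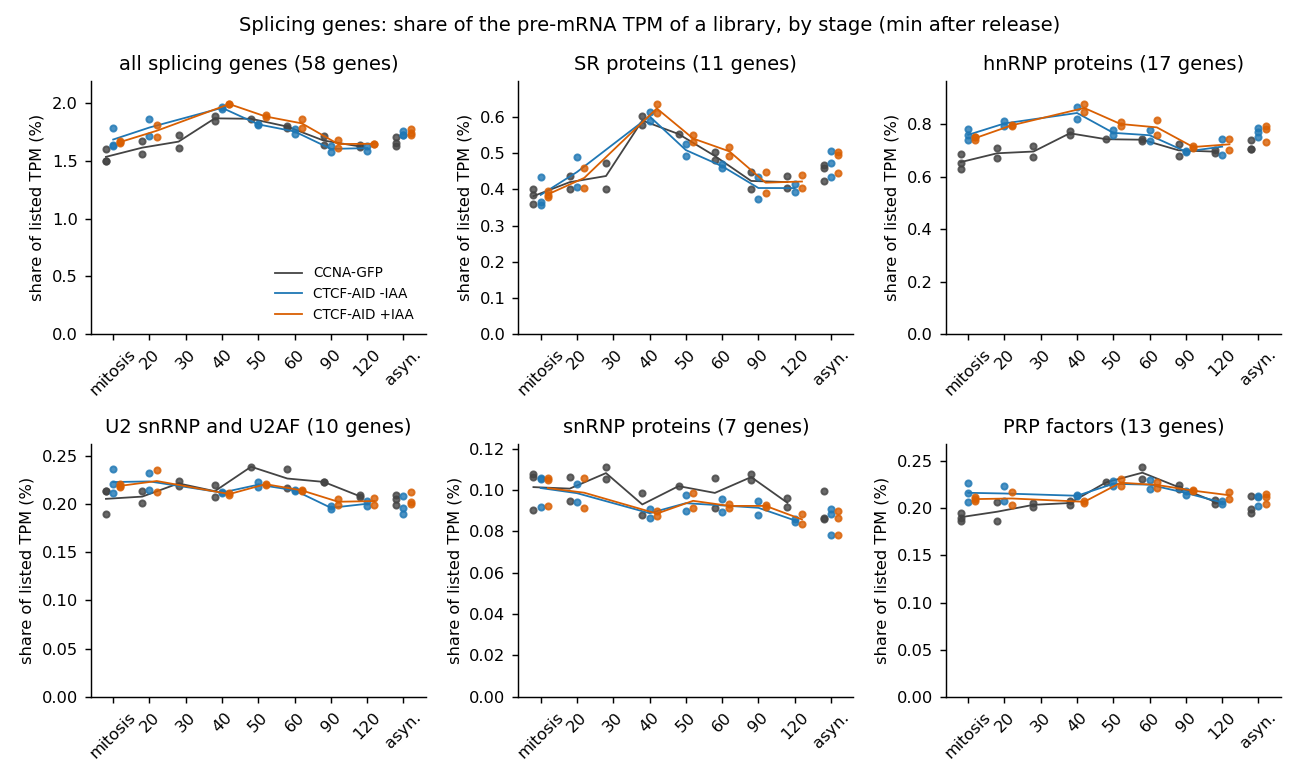
Share of the listed pre-mRNA TPM (percent, y axis) held by all 58 splicing genes and by each of the 5 roles at each stage (x axis), with 1 point per library and lines through the group means for CCNA-GFP, CTCF-AID -IAA and CTCF-AID +IAA. The SR panel peaks at 40 min, at 0.578–0.635% in the 6 libraries, above the 0.355–0.433% of the 9 mitotic libraries.

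The promoters of 4 SR genes that rose by 40 min are printed here, with those of Hnrnpr and Snrnp70, which were not called at 40 min, so that the early and the later genes can be read side by side. Each line gives the gene strand 5′ to 3′ from 120 to 11 bases before the RefSeq start on GRCm38.p6, the assembly also called mm10. Capitals mark matches, on either strand, to CCGGAAG (ETS), CCAAT (NF-Y box), the palindromic NRF1 motif, GGGCGG (SP/KLF) or TATAAA. The windows are chr11:116853105-116853214 on the minus strand for Srsf2, chr12:80945379-80945488 (plus) for Srsf5, chr2:162931388-162931497 (plus) for Srsf6 and chr17:80207316-80207425 (minus) for Srsf7. Those of Hnrnpr and Snrnp70 are chr4:136310822-136310931 (plus) and chr7:45395753-45395862 (minus). All lie upstream of the first exon of their gene, and the Srsf5 window also overlaps an exon of the long noncoding RNA Gm20337.
Srsf2: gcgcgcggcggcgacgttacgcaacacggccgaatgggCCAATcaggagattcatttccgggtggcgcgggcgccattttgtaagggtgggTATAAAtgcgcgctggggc
Srsf5: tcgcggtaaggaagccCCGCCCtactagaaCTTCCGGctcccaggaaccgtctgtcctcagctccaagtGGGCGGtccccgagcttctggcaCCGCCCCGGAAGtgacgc
Srsf6: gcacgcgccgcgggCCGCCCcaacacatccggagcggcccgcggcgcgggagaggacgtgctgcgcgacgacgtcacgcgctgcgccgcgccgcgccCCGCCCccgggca
Srsf7: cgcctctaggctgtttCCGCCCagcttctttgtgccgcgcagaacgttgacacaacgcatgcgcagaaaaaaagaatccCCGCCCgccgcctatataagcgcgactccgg
Hnrnpr: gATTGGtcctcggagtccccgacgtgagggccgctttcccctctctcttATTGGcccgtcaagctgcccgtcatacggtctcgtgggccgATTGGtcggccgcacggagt
Snrnp70: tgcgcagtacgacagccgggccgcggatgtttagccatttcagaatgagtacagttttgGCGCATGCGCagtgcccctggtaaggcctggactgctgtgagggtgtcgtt

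The printed windows differ from each other in their letters. Srsf2 alone among the 6 shows TATAAA, with a CCAAT box further upstream, whereas Srsf5 and Srsf6 show GC boxes and no TATAAA. Hnrnpr shows 3 CCAAT boxes, read here as ATTGG, and Snrnp70 shows the NRF1 letters and no GC box. These differences hold for the printed windows only. In the promoters of 300 bases described further on, GGGCGG was present for each of the 6 genes. In Srsf5 the last GC box and CCGGAAG share 1 base. A match is a run of letters and not evidence that a factor binds there.

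Srsf2 (SC35, a marker of nuclear speckles) showed, with Srsf5, the largest rise at 40 min among the SR genes named here. It lies on chromosome 11 at 116849901-116853094, minus strand, and spans 3194 bp, of which 92.6% is exonic. In CCNA-GFP its pre-mRNA stood at 7.94, 10.3 and 7.82 TPM in mitosis and at 31.2 and 25.6 TPM at 40 min, a log2 change of 1.54 ± 0.15 (SE, adjusted p = 2.3e-07 by limma). Without IAA it stood at 14.4, 9.69 and 6.73 TPM in mitosis and at 56.3 and 42.5 TPM at 40 min (2.21 ± 0.27, adjusted p = 4.3e-07). With IAA the mitotic values were 11.2, 14.1 and 8.20 TPM and those at 40 min 54.7 and 43.1 TPM (2.06 ± 0.27, adjusted p = 1.1e-06). In each arm the lowest library at 40 min was above the highest mitotic one.

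Srsf2 also stood above mitosis in cycling cells, at 27.3, 23.4 and 25.2 TPM in asynchronous CCNA-GFP cells (1.45 ± 0.13, adjusted p = 1.7e-07). The same comparison gave 1.41 ± 0.24 without IAA and 1.46 ± 0.24 with IAA, with adjusted p of 0.00040 and 0.00017. At 120 min it was still at 30.3 to 35.6 TPM in the 6 libraries of the 3 arms. Since nearly all of its span is exonic, few intronic bases separate its pre-mRNA from its spliced RNA, and Mettl23 and Mfsd11 overlap it on the opposite strand.

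Srsf5 and Srsf6 are close relatives that promote exon inclusion. Srsf5 (chromosome 12, 80945504-80950507, 79.7% exonic) stood at 6.27, 3.82 and 5.40 TPM in CCNA-GFP mitosis and at 21.6 and 17.4 TPM at 40 min, a log2 change of 1.82 ± 0.16 (adjusted p = 1.2e-07). The changes in CTCF-AID were 1.92 ± 0.22 without IAA (adjusted p = 1.3e-07) and 2.07 ± 0.22 with IAA (adjusted p = 3.9e-08). Its level then went to 26.9 and 20.0 TPM at 60 min and 15.0 and 13.7 TPM at 120 min in CCNA-GFP, still above the highest mitotic library. Asynchronous cells held it at 11.3 ± 2.29 TPM (SD, n = 3), the lowest library at 9.83 TPM, again with no overlap with mitosis (1.01 ± 0.14, adjusted p = 1.3e-05).

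Srsf6 (chromosome 2, 162931528-162937121, 86.0% exonic) was a lower-level gene with the same course. It stood at 1.81, 2.26 and 2.19 TPM in CCNA-GFP mitosis and at 7.88 and 6.36 TPM at 40 min (1.43 ± 0.15, adjusted p = 3.6e-07). Without and with IAA it rose by 1.49 ± 0.19 and 1.44 ± 0.19, with adjusted p of 6.3e-07 and 1e-06. Asynchronous cells were higher than mitotic cells by 1.14 ± 0.13 in CCNA-GFP and by 1.13 ± 0.17 in each CTCF-AID arm.

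Srsf1 (SF2/ASF, the founding SR protein) rose early and was as high in cycling cells. It lies on chromosome 11 at 88047373-88053755, with 89.5% of its span exonic. Its level went from 3.28, 2.52 and 2.08 TPM in CCNA-GFP mitosis to 6.81 and 5.83 TPM at 40 min (1.01 ± 0.17, adjusted p = 7.5e-05), and asynchronous cells held 6.61, 8.75 and 9.04 TPM (1.34 ± 0.15, adjusted p = 1.3e-06). In CTCF-AID it rose by 1.16 ± 0.19 without IAA and by 1.30 ± 0.19 with IAA at 40 min. Srsf1, Srsf2, Srsf5 and Srsf6 were higher in asynchronous than in mitotic cells in every arm and under each of the 3 scalings described further on.

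Srsf3 (the smallest SR protein, also an adaptor of mRNA export) and Srsf7 (9G8, which carries a zinc knuckle) rose and then fell within 120 min. Srsf3 stood at 10.9, 8.74 and 12.7 TPM in CCNA-GFP mitosis and at 26.7 and 21.0 TPM at 40 min (1.21 ± 0.13, adjusted p = 6.1e-07), and at 18.7 and 15.6 TPM at 120 min. Without and with IAA its changes at 40 min were 0.96 ± 0.22 (adjusted p = 0.00075) and 0.91 ± 0.22 (adjusted p = 0.0013). From 60 to 120 min Srsf3 fell by 0.82 in CCNA-GFP (SE 0.14, adjusted p = 0.00019), by 0.76 without IAA (SE 0.24, adjusted p = 0.016) and by 0.93 with IAA (SE 0.24, adjusted p = 0.0041). In CTCF-AID it ended at 11.6 to 12.7 TPM, within the mitotic range of 11.5 to 18.2 TPM.

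Srsf7 (chromosome 17, 80200080-80207307, 49.1% exonic) followed the same course. In CTCF-AID without IAA it went from 16.5, 12.3 and 18.4 TPM in mitosis to 33.6 and 27.3 TPM at 40 min (0.92 ± 0.20, adjusted p = 0.00052) and down to 11.7 and 11.9 TPM at 120 min, below all 3 mitotic libraries. The fall from 60 to 120 min was called in each arm, by 0.86 (SE 0.16, adjusted p = 0.00041) in CCNA-GFP, by 0.93 (SE 0.22, adjusted p = 0.0024) without IAA and by 1.01 (SE 0.22, adjusted p = 0.0012) with IAA. At 60 min both genes were called higher than in mitosis in every arm, with log2 changes of 1.58, 0.50 and 0.62 for Srsf3 and 1.56, 0.55 and 0.82 for Srsf7 in CCNA-GFP, -IAA and +IAA. With every library set to the same total these became 0.29, -0.35 and -0.23 for Srsf3 and 0.34, -0.30 and -0.03 for Srsf7, so that the direction at 60 min turned in CTCF-AID.

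The other SR genes moved less by 40 min. Srsf11 rose by 0.48 ± 0.14, 0.42 ± 0.15 and 0.40 ± 0.15 in CCNA-GFP, -IAA and +IAA (adjusted p of 0.0069, 0.025 and 0.035), but at the same total its differences were -0.04, -0.07 and -0.05. Srsf10, which represses splicing in mitosis when it is dephosphorylated, was not called, with 0.31 ± 0.14 (adjusted p = 0.062), 0.24 ± 0.15 (adjusted p = 0.19) and 0.25 ± 0.15 (adjusted p = 0.18). Srsf4 and Srsf9, chosen after their values were seen, gave 0.30, 0.22 and 0.10 for Srsf4, not called in any arm, and 0.54, 0.43 and 0.30 for Srsf9, called in CCNA-GFP and without IAA.

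Srsf12, a low-level SR gene, had its highest mean between 60 and 120 min after release. It is the 1 splicing gene whose asynchronous mean is under the authors' filter of 0.5 TPM in every arm, so it is listed through the later libraries in which it is high, and its values are given as a description. It stays among the 58 in the counts given further on, and without it, an alternative chosen after seeing the data, each count of higher genes that holds it drops by 1. It stood at 0.105, 0.133 and 0.112 TPM in CCNA-GFP mitosis, at 0.266 and 0.424 TPM at 60 min and at 0.550 and 0.626 TPM at 120 min. The differences from mitosis were 0.26 ± 0.06 at 60 min and 0.50 ± 0.06 at 120 min. Asynchronous CCNA-GFP cells held 0.0870, 0.207 and 0.116 TPM, which overlaps mitosis. In CTCF-AID the differences from mitosis were 0.33 ± 0.09 without IAA and 0.38 ± 0.09 with IAA at 50 min and 0.41 ± 0.09 and 0.52 ± 0.09 at 60 min. There its highest mean came at 90 min without IAA (0.640 TPM) and at 60 min with IAA (0.608 TPM), and the differences between 120 and 60 min were -0.10 and -0.16, against 0.24 in CCNA-GFP.

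**Figure D2:**
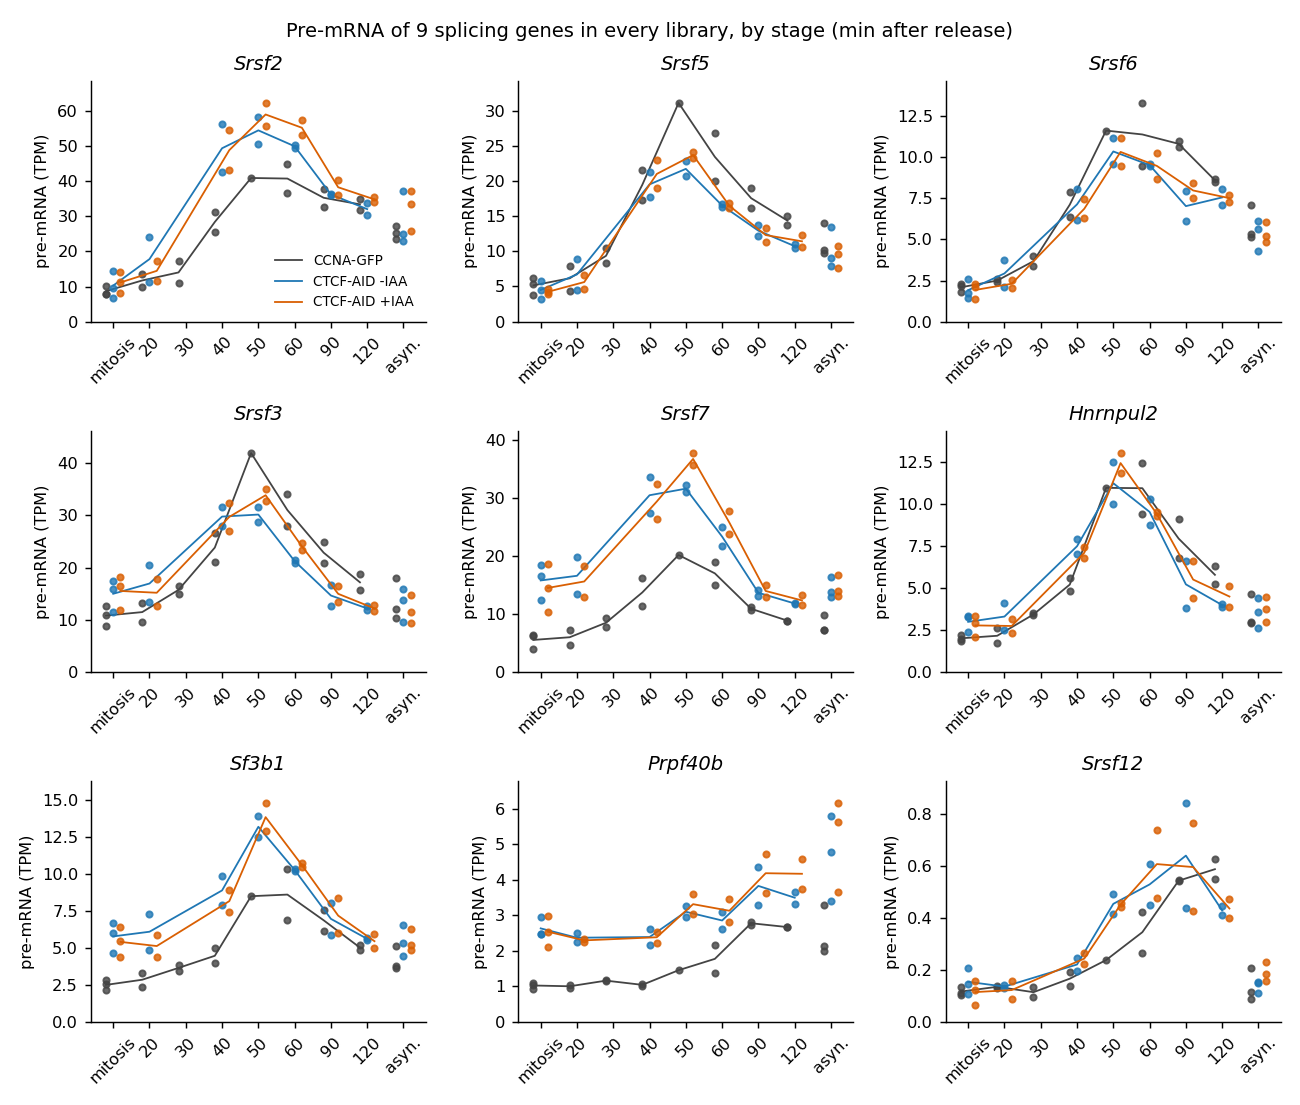
Pre-mRNA level (TPM, y axis) of Srsf2, Srsf5, Srsf6, Srsf3, Srsf7, Hnrnpul2, Sf3b1, Prpf40b and Srsf12 at each stage (x axis), with 1 point per library and lines through the group means of the 3 arms, whose 2 lines were normalised separately. Srsf2 is at 25.6–56.3 TPM in all libraries at 40 min against 6.73–14.4 TPM in mitosis, whereas Srsf12 is at 0.550 and 0.626 TPM in CCNA-GFP at 120 min against 0.266 and 0.424 TPM at 60 min.

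Among hnRNP genes, Hnrnph1 (which binds runs of guanines) had the largest change at 40 min in every arm of those named one by one here. It went from 7.04, 6.48 and 7.56 TPM in CCNA-GFP mitosis to 20.5 and 17.7 TPM at 40 min and 31.0 and 26.4 TPM at 60 min. The changes at 40 min were 1.38 ± 0.14 (adjusted p = 3.1e-07) in CCNA-GFP, 1.33 ± 0.24 (adjusted p = 6.1e-05) without IAA and 1.46 ± 0.24 (adjusted p = 2e-05) with IAA. At 60 min it exceeded the 8.64, 8.20 and 11.0 TPM of asynchronous CCNA-GFP cells by 1.59 ± 0.14 (adjusted p = 7.3e-09). In CTCF-AID the excess over asynchronous cells was 1.29 ± 0.24 and 1.37 ± 0.24, with all 60 min libraries above all asynchronous ones.

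Hnrnpul2, a relative of the nuclear scaffold protein gene Hnrnpu, rose and fell in the same window. In CCNA-GFP it stood at 1.81, 1.96 and 2.19 TPM in mitosis, 12.4 and 9.40 TPM at 60 min and 5.25 and 6.29 TPM at 120 min. It was higher at 60 min than in asynchronous cells by 1.51 ± 0.15 (adjusted p = 3.3e-08), and by 1.24 ± 0.21 and 1.15 ± 0.21 in the -IAA and +IAA arms (adjusted p of 2.2e-05 and 5.4e-05). From 60 to 120 min it fell by 0.81 (SE 0.16, adjusted p = 0.00067), by 1.08 (SE 0.23, adjusted p = 0.0011) and by 0.93 (SE 0.23, adjusted p = 0.0033) in CCNA-GFP, -IAA and +IAA. No library at 120 min reached those at 60 min.

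Hnrnpdl and Hnrnpu differed between mitotic and cycling cells. Hnrnpdl, a regulator of its own splicing that was chosen after its values were seen, rose by 1.26 ± 0.15, 1.28 ± 0.16 and 1.27 ± 0.16 at 40 min in CCNA-GFP, -IAA and +IAA. It also stood higher in asynchronous than in mitotic cells, by 1.00 ± 0.13, 0.73 ± 0.14 and 0.70 ± 0.14. Hnrnpu held 19.5, 21.4 and 26.2 TPM in asynchronous against 13.8, 11.0 and 13.2 TPM in mitotic CCNA-GFP cells (0.77 ± 0.12, adjusted p = 3.1e-05). The Hnrnpu difference was 0.48 ± 0.15 without IAA (adjusted p = 0.041) and 0.59 ± 0.15 with IAA (adjusted p = 0.0096).

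A further set of hnRNP genes rose on the deposited scale but not ahead of the pool. Hnrnpk (which binds cytosine-rich RNA) stood at 6.83, 5.68 and 7.25 TPM in CCNA-GFP mitosis and at 17.3 and 13.0 TPM at 60 min. Its changes at 60 min were 1.17 in CCNA-GFP, 0.63 without IAA and 0.79 with IAA, all called, and became -0.07, -0.20 and -0.05 at the same total. Hnrnpl (CA repeats), Hnrnpc (uridine tracts) and Hnrnpd (AU-rich elements) behaved alike in this respect. Their changes as deposited were 1.10, 0.47 and 0.54 for Hnrnpl, 1.10, 0.49 and 0.48 for Hnrnpc and 1.08, 0.50 and 0.53 for Hnrnpd, called in each arm, and each turned negative at the same total.

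Hnrnpr, chosen after its values were seen and for its printed promoter, was not called at 40 min in any arm (0.20, -0.03 and -0.07). It stood at 2.02, 2.03 and 2.25 TPM in CCNA-GFP mitosis and at 4.72 and 3.61 TPM at 60 min, a change of 0.78 ± 0.12 (adjusted p = 6e-06). The changes at 60 min were 0.33 ± 0.13 in both CTCF-AID arms (adjusted p of 0.023 and 0.026), and all 3 turned negative at the same total.

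Of the 10 U2 snRNP and U2AF genes, 9 in each arm were higher at 60 min than in asynchronous cells, with medians of 0.86, 0.79 and 0.77 in CCNA-GFP, -IAA and +IAA, where 67%, 62.3% and 59.3% of all genes were higher (medians 0.47, 0.47 and 0.44). Under each of the 3 scalings described further on 6, 6 and 5 of the 10 were higher, against 35%, 30% and 30% of all genes. Sf3b1, which contacts the branch point, went from 2.54, 2.13 and 2.84 TPM in CCNA-GFP mitosis to 10.3 and 6.89 TPM at 60 min and 5.21 and 4.85 TPM at 120 min, against 3.80, 3.64 and 5.12 TPM in asynchronous cells. It was higher at 60 min than in asynchronous cells by 0.96 ± 0.13 (adjusted p = 1.7e-06), 0.82 ± 0.19 (adjusted p = 0.00046) and 0.86 ± 0.19 (adjusted p = 0.00031) in CCNA-GFP, -IAA and +IAA. From 60 to 120 min it fell by 0.65 (SE 0.14, adjusted p = 0.0013), by 0.77 (SE 0.20, adjusted p = 0.0053) and by 0.85 (SE 0.20, adjusted p = 0.0024). At 120 min the CTCF-AID libraries (4.99 to 5.94 TPM) lay within the asynchronous range of 4.45 to 6.55 TPM.

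Sf3b2 and Sf3a1, further U2 snRNP subunits, exceeded asynchronous cells at 60 min by 1.19 ± 0.14, 0.93 ± 0.17 and 0.78 ± 0.17 for Sf3b2 and by 0.91, 0.76 and 0.76 for Sf3a1, called in every arm and under each scaling. Sf3b4, an SF3b subunit chosen after its values were seen, was early, with 0.93 ± 0.13, 1.02 ± 0.16 and 0.93 ± 0.16 at 40 min. The U2AF genes, whose products read the pyrimidine tract (U2af2) and the AG at the end of the intron (U2af1), rose at 60 min by 1.19, 0.63 and 0.66 for U2af1 and by 1.18, 0.61 and 0.51 for U2af2. Both turned negative at the same total in every arm. U2af1l4, a U2af1 relative chosen after its values were seen, was listed at 0 in several libraries and was not called at 60 min in CCNA-GFP.

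Snrnp70, the U1 protein that helps read the 5′ splice site, was a later gene. It stood at 6.20, 5.25 and 7.48 TPM in CCNA-GFP mitosis, 8.13 and 6.64 TPM at 40 min and 15.2 and 9.44 TPM at 60 min. At 40 min its differences were 0.35 (adjusted p = 0.061), 0.02 and -0.01. At 60 min it was higher by 0.99 ± 0.15 in CCNA-GFP (adjusted p = 4.2e-06) and by 0.43 ± 0.19 without IAA (adjusted p = 0.046), while the difference with IAA was 0.36 ± 0.19 (adjusted p = 0.091). At the same total both called rises turned, to -0.23 and -0.39. Snrnp200, the helicase that unwinds U4 from U6, was higher at 60 min than in asynchronous cells by 1.03 ± 0.15, 0.92 ± 0.19 and 0.77 ± 0.19. Snrnp25 of the minor spliceosome, chosen after its values were seen, rose early by 0.68 ± 0.11, 0.94 ± 0.21 and 1.07 ± 0.21.

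Among PRP factors, Prpf8 (the core of the spliceosome) rose at 60 min by 1.37 ± 0.15 (adjusted p = 4.5e-08), 1.22 ± 0.21 (adjusted p = 1.7e-05) and 1.08 ± 0.21 (adjusted p = 6.9e-05) in CCNA-GFP, -IAA and +IAA, from 2.47, 2.09 and 2.81 TPM to 9.06 and 5.76 TPM in CCNA-GFP. Prpf19, a ubiquitin ligase of the spliceosome, was higher at 60 min than in asynchronous cells by 1.42 ± 0.14 (adjusted p = 2.1e-08), 1.29 ± 0.18 (adjusted p = 1.7e-06) and 1.28 ± 0.18 (adjusted p = 2e-06). Its CCNA-GFP levels were 10.2 and 6.89 TPM at 60 min against 2.61, 2.12 and 4.16 TPM in asynchronous cells. For both genes the groups compared do not overlap in CCNA-GFP.

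The kinase gene Prpf4b rose at 40 min by 0.78, 0.68 and 0.69 (SE 0.13 in each arm) and fell from 60 to 120 min by 0.65 (SE 0.13, adjusted p = 0.00091), by 0.64 (SE 0.14, adjusted p = 0.0014) and by 0.69 (SE 0.14, adjusted p = 0.00065). Prpf38a, which joins the spliceosome before its activation and was chosen after its values were seen, rose at 40 min by 1.06, 1.09 and 1.07.

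Prpf40b, a PRP factor, was lower at 60 min than in asynchronous cells, with 2.17 and 1.38 TPM against 2.15, 2.00 and 3.28 TPM in CCNA-GFP, where the groups overlap (-0.26 ± 0.12, adjusted p = 0.049). Without IAA it held 3.10 and 2.61 TPM against 4.78, 3.41 and 5.79 TPM (-0.54 ± 0.17, adjusted p = 0.0082), and with IAA 3.45 and 2.81 TPM against 5.63, 3.66 and 6.16 TPM (-0.56 ± 0.17, adjusted p = 0.0066), with no overlap in either arm. It was the 1 splicing gene called lower in this comparison in each arm. Its asynchronous levels exceeded mitosis by 0.76 ± 0.10, 0.62 ± 0.15 and 0.78 ± 0.15, and in CCNA-GFP it rose from 60 to 120 min by 0.42 ± 0.12 (adjusted p = 0.012).

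Prpf31, a tri-snRNP protein, had among the smallest changes at 60 min. It stood at 2.33, 2.06 and 2.98 TPM in CCNA-GFP mitosis and at 3.77 and 2.90 TPM at 60 min (0.44 ± 0.11, adjusted p = 0.0011), which turned to -0.58 at the same total. In CTCF-AID its differences of -0.10 ± 0.17 and -0.15 ± 0.17 were not called (adjusted p of 0.62 and 0.46).

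Counted over all 58 genes on the deposited scale, the first calls came at 40 min. At 20 min no splicing gene was called by limma in any arm, and percent called over all genes at the same adjusted p was 0 in each. At an unadjusted p under 0.05 there were 1, 4 and 0 splicing genes in CCNA-GFP, -IAA and +IAA. At 30 min, measured in CCNA-GFP alone, none was called by limma, with 0.303% of all genes called higher at the same adjusted p. At an unadjusted p under 0.05 there were 16 splicing genes. The unadjusted counts at 20 and 30 min have no share of all genes beside them, so they are not set against a background. Dividing each library by the step between its lowest values gave 9 higher and 0 lower at 30 min, where 3.63% of all genes were higher and 0.0202% lower.

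At 40 min 47 splicing genes were higher and 0 lower in CCNA-GFP, where 49.3% of all genes were called higher and 0.0404% lower and the median log2 change was 0.54 for splicing genes and 0.26 for all genes. Without IAA 34 were higher and 0 lower (43.5% of all genes higher and 1.42% lower, medians 0.43 and 0.28), and with IAA 30 and 0 (40% and 1.5% of all genes, medians 0.39 and 0.24). By role, SR genes gave 8, 8 and 7 calls of 11 with medians of 1.01, 0.92 and 0.91, and hnRNP genes 16, 11 and 11 of 17 with medians of 0.58, 0.56 and 0.60. U2 snRNP and U2AF genes gave 8, 4 and 4 of 10, snRNP genes 5, 3 and 3 of 7, and PRP factors 10, 8 and 5 of 13, all with medians between 0.24 and 0.53. The 40 min calls rest in part on replicate 1, without which 5 genes were called in each CTCF-AID arm, and in CCNA-GFP on the replicate block, without which 22 were called. The CTCF-AID counts come from a fit with no block, and with the block they were 47 higher and 0 lower without IAA (63.3% and 3.21% of all genes) and 43 and 0 with IAA (58.7% and 3.87%).

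The counts at 40 min depend on the scale. Setting each library to the same total moved the median change of all genes at 40 min from 0.26, 0.28 and 0.24 to -0.05, -0.02 and -0.03. On that scale 21 splicing genes were higher and 8 lower in CCNA-GFP (23.7% and 31.3% of all genes), 20 and 16 without IAA (26.9% and 27%) and 21 and 15 with IAA (27.6% and 29.4%). The SR median stayed positive at 0.54, 0.40 and 0.43, with 6 SR genes higher and 2 lower in each arm. A further scale, which divides by the step between the lowest values of a library, gave the third setting.

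Under all 3 scales 19 splicing genes were higher at 40 min in all 3 arms. They were Srsf1, Srsf2, Srsf3, Srsf5, Srsf6 and Srsf7, Hnrnpab, Hnrnpdl, Hnrnph1, Hnrnph2, Hnrnph3 and Hnrnpul2, Sf3b4 and Sf3b6, Snrnp25 and Snrnp27, and Prpf19, Prpf38a and Prpf4b. This was met by 19.4% of the 9574 genes that both tables hold. None of the 58 was lower under all scales. Within single arms 21, 20 and 21 of the 58 met this in CCNA-GFP, -IAA and +IAA, against 23.7%, 26.9% and 27.6% of all genes.

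**Figure D3:**
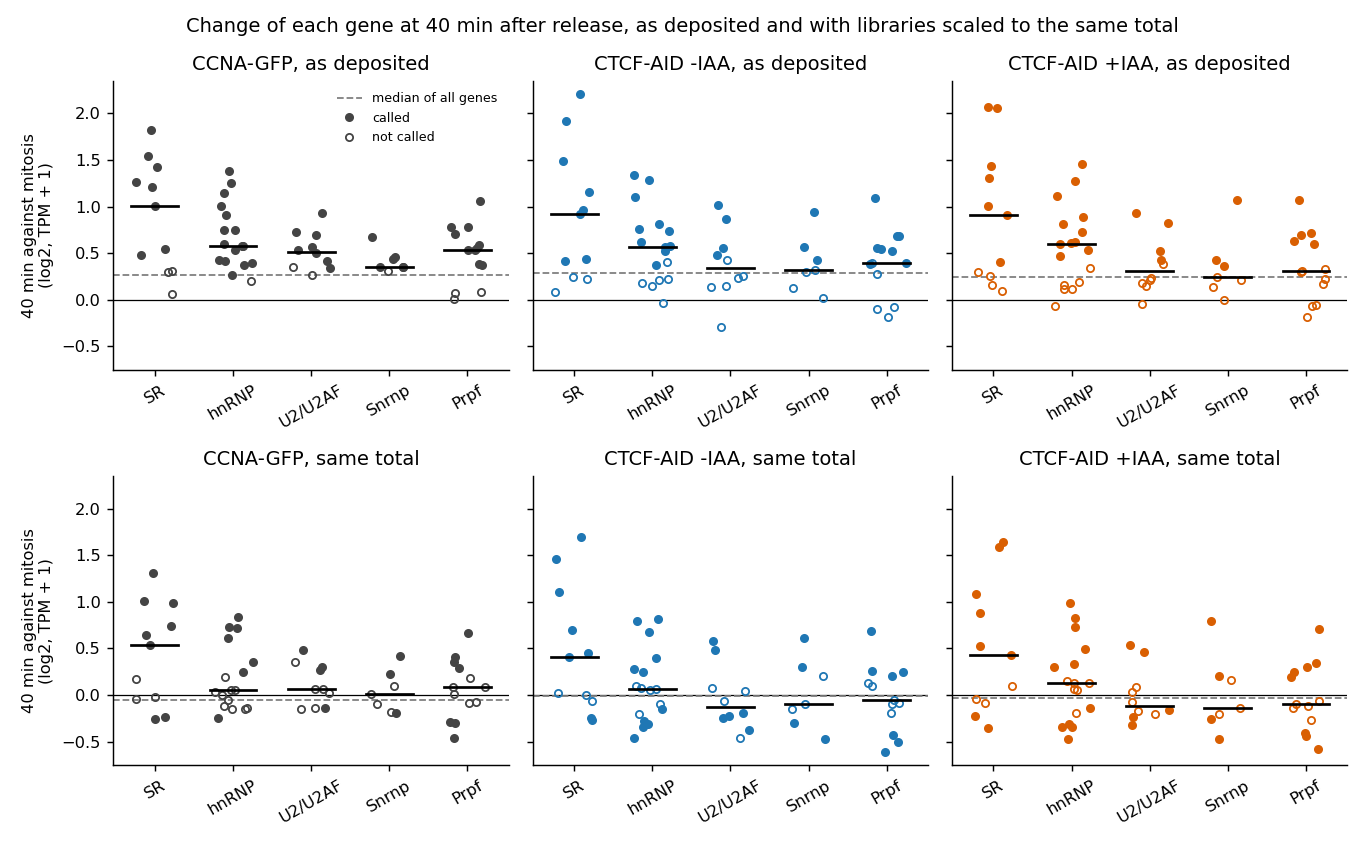
Log2 change at 40 min against mitosis (y axis) of each splicing gene by role (x axis) in the 3 arms, on the deposited scale (top row) and with every library at the same total (bottom row), where filled points are called, open points are not, bars are role medians and the dashed line is the median of all genes. The SR median is 1.01, 0.92 and 0.91 on the deposited scale and 0.54, 0.40 and 0.43 at the same total, where Srsf11 and other points cross below 0.

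At 60 min nearly all splicing genes were above mitosis, as were most listed genes. In CCNA-GFP 57 were higher and 0 lower (88.3% of all genes higher and 0.515% lower), without IAA 55 and 0 (72.8% and 1.66%) and with IAA 54 and 0 (70.4% and 2.62%). The median changes were 1.24, 0.71 and 0.78 for splicing genes against 0.79, 0.58 and 0.58 for all genes. The exceptions were U2af1l4 in CCNA-GFP, Prpf31, Prpf40b and Prpf6 in both CTCF-AID arms, and Snrnp70 with IAA. At the same total the counts were 30 higher and 10 lower (36.4% and 33.3% of all genes), 20 and 17 (31.8% and 24.1%), and 22 and 11 (33.7% and 26.7%). Without replicate 1 the CTCF-AID arms gave 27 and 33 calls.

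On the deposited scale most splicing genes, like most listed genes, stayed above mitosis to 120 min in CCNA-GFP. Fewer of both did so in CTCF-AID. Compared with mitosis, CCNA-GFP had 58 splicing genes higher at 90 min, 57 at 120 min and 0 lower at either, where 89.1% and 90.2% of all genes were higher and 0.948% and 0.656% lower. In CTCF-AID 54 were higher and 0 lower at 50 min in each arm, where 73.8% and 72.9% of all genes were higher and 1.86% and 2.22% lower without and with IAA. At 120 min 24 and 28 were still higher and 0 lower, where 42.3% and 43.7% of all genes were higher and 1.7% and 2.57% lower. The median change of the 58 at 120 min was 0.92 in CCNA-GFP, 0.29 without IAA and 0.35 with IAA, against 0.68, 0.29 and 0.30 for all genes. At the same total the calls went both ways, with 20 higher and 15 lower at 50 min without IAA (33.7% and 26.8% of all genes) and 23 and 14 with IAA (34.8% and 29.2%). In CCNA-GFP they were 25 higher and 9 lower at 90 min (31.8% and 26.2% of all genes) and 19 and 10 at 120 min (28.7% and 23.5%). On that scale the 120 min counts were 13 higher and 24 lower without IAA (23.2% and 18.5% of all genes) and 16 and 24 with IAA (25.6% and 21.7%). The 120 min calls in CTCF-AID dropped without replicate 1 or replicate 2, either of which leaves 1 library at 120 min. With division by the step they dropped to 14 without IAA. These drops have no share of all genes beside them. The tables were normalised separately and only the CCNA-GFP fit has the replicate block, so the contrast between the lines was not tested.

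Against asynchronous cells, 60 min levels were higher for 54, 50 and 49 splicing genes and lower for 1 in each arm, where 67%, 62.3% and 59.3% of all genes were higher and 8.6%, 4.79% and 5.49% lower. Medians were 0.73, 0.70 and 0.73 against 0.47, 0.47 and 0.44. With every library at the same total 25, 21 and 22 were higher and 10, 13 and 9 lower, where 35%, 30% and 30% of all genes were higher and 35.2%, 25.5% and 26.4% lower. Under all scales 25, 21 and 22 were higher (35%, 30% and 30% of all genes). In all arms at once 17 of the 58 met this, against 24.7% of the 9574 genes of both tables, including Hnrnph1, Hnrnpul2, Sf3a1, Sf3b1, Sf3b2, Sf3b4, Snrnp200, Prpf19 and Prpf4b, and Prpf40b was lower. Without replicate 1, which leaves 1 library at 60 min, the calls in this comparison dropped in each arm, with no share of all genes beside them.

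From 60 to 120 min 21, 26 and 24 splicing genes fell in CCNA-GFP, -IAA and +IAA (28.5%, 33.2% and 33.1% of all genes) and 2, 0 and 0 rose (9.6%, 2.62% and 2.78%). Of the 2, 1 was Srsf12, so that without it Prpf40b alone rose. With all libraries at the same total 21, 15 and 15 fell (21.7%, 16% and 17.1% of all genes) and 10, 3 and 3 rose (24.4%, 14.7% and 15.9%). On the deposited scale the median change was -0.30, -0.51 and -0.46 against -0.11, -0.27 and -0.25 for all genes. In all arms under all scales 6 of the 58 fell, against 7.35% of the genes of both tables (12.9%, 16% and 16.9% of all genes in the single arms), and they included Srsf3, Srsf7, Hnrnpul2, Sf3b1 and Prpf4b. Blocking on the replicate number raised the calls to 45 and 44 in the CTCF-AID arms, where 53.1% and 50.8% of all genes then fell and 7.31% and 7.61% rose, against 23 in CCNA-GFP, where the block is part of the design and 8 were called without it. Without replicate 1, which leaves 1 library at 60 and at 120 min, the limma calls dropped in each arm. They also dropped in the -IAA arm without replicate 2. These drops have no share of all genes beside them.

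Asynchronous cells differed from mitotic cells for fewer splicing genes, and for fewer of all genes, in CTCF-AID than in CCNA-GFP. The tables were normalised separately, only the CCNA-GFP fit has the replicate block, and the difference was not tested. Without the block 34 splicing genes were called in CCNA-GFP. In CCNA-GFP 49 were higher and 0 lower (70.4% of all genes higher and 1.97% lower, medians 0.46 and 0.33), without IAA 9 and 0 (11.6% and 1.24%, medians 0.05 and 0.12) and with IAA 10 and 0 (17.3% and 1.75%, medians 0.10 and 0.15). With the replicate block the CTCF-AID arms gave 14 higher and 1 lower (34.3% and 5.25% of all genes), and 18 and 3 (40.9% and 5.89%). Without replicate 1 the limma calls were 0 without IAA (7 at an unadjusted p under 0.05) and 1 with IAA, and without replicate 3 the -IAA arm gave 3. These counts have no share of all genes beside them. At the same total the counts were 16 higher and 13 lower in CCNA-GFP (24.8% and 20.3% of all genes), 12 and 20 without IAA (15.2% and 13.9%) and 11 and 16 with IAA (17.4% and 14.6%). Under all scales 16, 9 and 10 of the 58 were higher, against 24.8%, 10.4% and 14.6% of all genes. The 8 that were higher in every arm and on every scale, against 6.84% of the genes of both tables, were Srsf1, Srsf2, Srsf5, Srsf6, Hnrnpdl, Hnrnpu, Prpf38b and Prpf40b.

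On the deposited scale mean levels of most splicing genes peaked between 50 and 90 min. Their mean share of the listed TPM was highest at 40 min in each arm, at 1.87%, 1.96% and 1.99%. In CCNA-GFP the single 50 min library nearly equalled this, at 1.86%. At 90 min the shares stood at 1.67%, 1.60% and 1.64%. These means come from different replicates, with replicates 1 and 2 at 40, 60 and 120 min, 1 and 3 at 90 min, and 1 and 3 (CTCF-AID) or 3 alone (CCNA-GFP) at 50 min. In CCNA-GFP the highest mean came at 50 min for 19 genes, at 60 min for 13 and at 90 min for 24. Of all genes, 21.7%, 23.0% and 37.1% had their highest mean at these stages. Within replicate 1, which lacks 50 min, 54 of the 58 were highest at 60 min (66.5% of all genes) and 3 at 90 min (11.8%). The comparison within replicate 1 was chosen after seeing the data. In CTCF-AID 43 genes without IAA and 46 with IAA had their highest mean at 50 min, where 48.1% and 51.2% of all genes did. Within replicate 1 these were 31 at 50 min and 21 at 60 min without IAA (36.7% and 34.5% of all genes), and 41 and 14 with IAA (47.3% and 23.6%). The mean asynchronous level was reached by 40 min for 31 of the 58 in CCNA-GFP (32.2% of all genes) and by 50 min for 54 (66.1%). In CTCF-AID it was reached by 40 min for 28 without IAA (42.4% of all genes) and 33 with IAA (40.7%). By 50 min these were 31 without IAA (58.6% of all genes) and 40 with IAA (60.7%). For 24 and 16 of the 58 the asynchronous mean was below the mitotic one (26.5% and 23.7% of all genes). In CCNA-GFP this held for 0 of the 58 and 8.35% of all genes. Such genes started above the asynchronous level and are left out of the counts of genes reaching it, so these counts do not measure incomplete recovery.

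Longer genes tended to change less by 40 min. The 58 genes spanned 2065 to 63793 bp with a median of 16427.5 bp, against 22653 bp for all matched genes of the CCNA-GFP table, and a median of 32.9% of the span was exonic against 19.9%. Spearman's rho between span and the 40 min change was -0.51, -0.57 and -0.59 over the 58 genes and -0.54, -0.60 and -0.64 over 9885, 10209 and 10209 matched genes in CCNA-GFP, -IAA and +IAA. At 60 min it was -0.28, -0.36 and -0.44 over the 58. These are correlations across genes that share their libraries, given as descriptions, and at 40 and 60 min the sign was the same for the 58 and for the whole table. For the change from 60 to 120 min rho was -0.0028, -0.037 and -0.026 over the 58, against 0.28, 0.23 and 0.23 over all matched genes. Of the 58, 18 span under 10000 bp (as do 2476 of all listed CCNA-GFP genes), 10 overlap another gene on the same strand and 22 on the opposite strand.

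**Figure D4:**
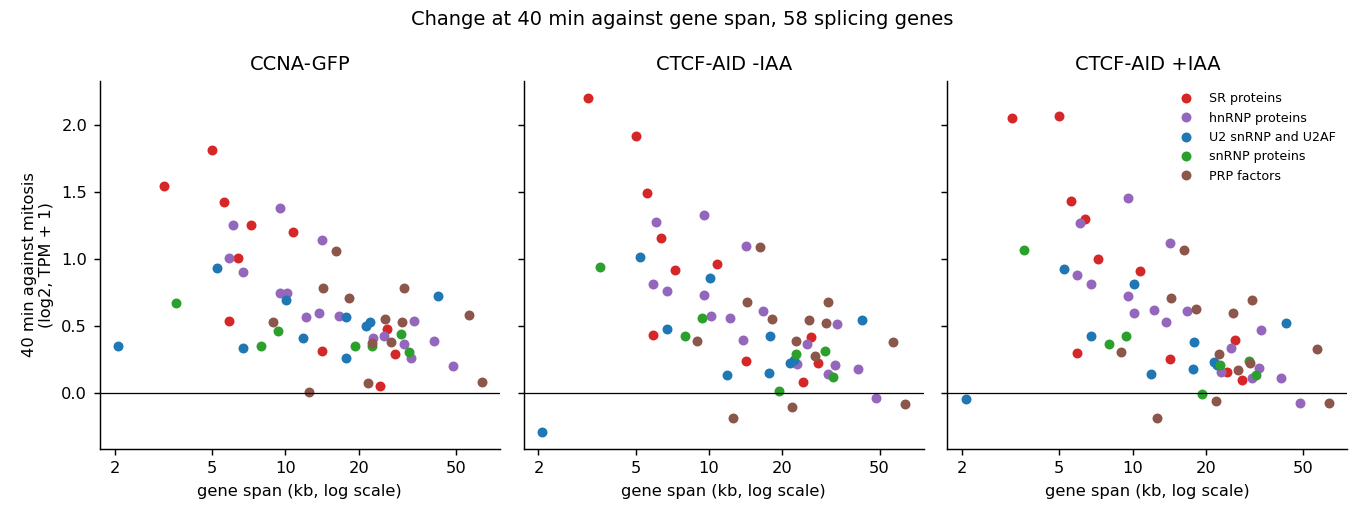
Log2 change at 40 min against mitosis (y axis) against the genomic span of each splicing gene (kb, log axis), coloured by role, in CCNA-GFP, CTCF-AID -IAA and CTCF-AID +IAA. Spearman's rho over the 58 genes is -0.51, -0.57 and -0.59, and the short SR genes Srsf2, Srsf5 and Srsf6 lie at the top left.

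Promoter letters are given beside those of other listed genes as a description, with no test. RefSeq promoters of 300 bases (250 before and 50 from the start) matched 51 of the 58 by symbol. CCGGAAG (ETS) was present for 17 genes (33.3%), against 21.5% of 8459 listed genes and 8.86% of all 32851 promoters. GGGCGG was present for 39 (76.5%, against 71.0% and 35.7%) and CCAAT for 23 (45.1%, against 43.9% and 37.4%). TATAAA was present for 5 (9.80%, against 7.98% and 13.6%), namely Srsf2, Srsf3, Hnrnpab, Hnrnpm and Snrnp48.

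Rarer letters were the NRF1 motif for 2 genes (3.92%, against 2.53% and 0.971%), AAGATGGCG (YY1) for 2 (3.92%, against 4.03% and 1.40%) and the CTCF core motif for 1, Hnrnpab (1.96%, against 3.30% and 2.43%). Of the 19 genes higher at 40 min in every arm and on every scale 17 had a promoter. Among them 6 held CCGGAAG, 9 CCAAT, 15 GGGCGG and 3 TATAAA, against 11, 14, 24 and 2 of the other 34. Median GC content was 61.0% for splicing gene promoters, 61.3% for listed genes and 52.7% for all promoters.

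Adding IAA gave no called difference in the 58 genes at any of the 8 stages. By limma 0 were called at an adjusted p under 0.1 and an absolute log2 difference over 0.2, and the unadjusted p was under 0.05 for 1 gene at 40 min and 1 at 50 min and for 0 at each of the other 6 stages. Over all genes the percent called higher and lower was 0 in mitosis and at 20 and 40 min, 0.0879% and 0.195% at 50 min, 0.0586% and 0.166% at 60 min, 0.176% and 0.557% at 90 min, 0.127% and 0.459% at 120 min and 0.313% and 0.694% in asynchronous cells. The combined call, which needed asynchronous cells or at least 2 time points, took 0.342% and 0.762% of all genes and 0 of the 58. That is 35 genes higher and 78 lower. The study, with a count-based test that TPM do not allow, reported more genes responding to CTCF loss than this. The absence of a call here therefore does not show that a gene is insensitive to CTCF. The median +IAA minus -IAA difference of the 58 lay between -0.11 (20 min) and 0.04 (50 min). The medians of all genes at these 2 stages were -0.061 and 0.0031. At each stage 51 to 57 of the 58 were within 0.2. The rise from mitosis to 60 min did not differ by arm for any of them by limma (0 called, and 0 at an unadjusted p under 0.05), and the contrast of 20 to 60 min with asynchronous cells gave 0 calls and 0 at an unadjusted p under 0.05, with 0.0195% of all genes called higher.

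Prpf18, a factor of the second splicing step that was chosen after its values were seen, was the gene at an unadjusted p under 0.05 at both stages. At 50 min it held 3.09 and 3.51 TPM without IAA and 2.34 and 2.24 TPM with IAA, a difference of -0.38 ± 0.14 (adjusted p = 1.0 by limma). At 40 min it held 2.55 and 1.74 against 1.71 and 1.21 TPM (-0.35 ± 0.14), where the arms do not overlap but 1.74 and 1.71 TPM nearly meet. Asynchronous cells held 1.26, 1.17 and 1.47 against 0.905, 0.944 and 1.03 TPM (-0.23 ± 0.11), with no overlap. At 50 min it passed the threshold with the replicate block (adjusted p = 0.0615) and at the same total (-0.35, adjusted p = 0.0384), and in asynchronous cells at the same total (-0.25, adjusted p = 0.0403).

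**Figure D5:**
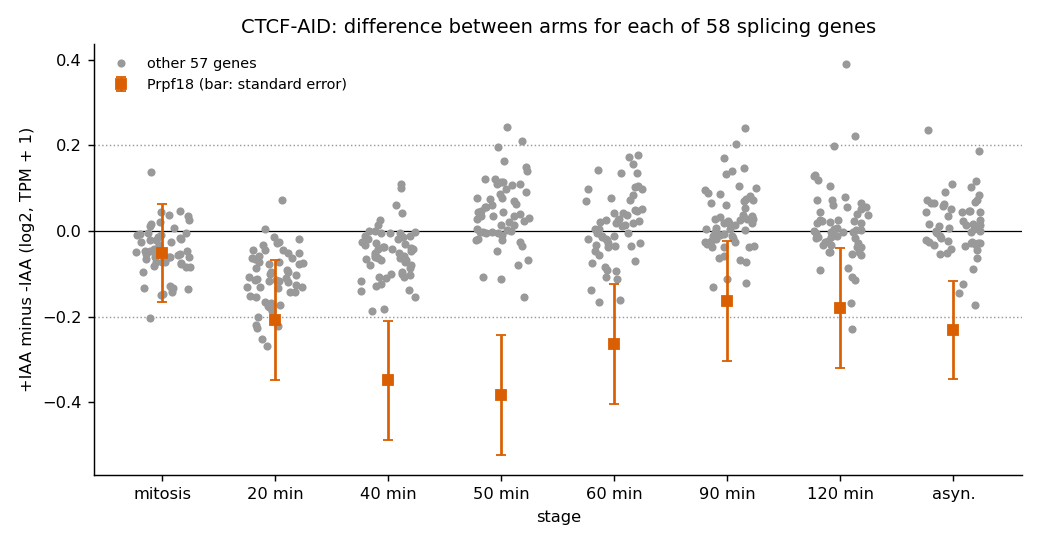
Difference in log2(TPM + 1) between +IAA and -IAA (y axis) of the 58 splicing genes at each stage of CTCF-AID cells (x axis), with Prpf18 in orange with its SE, the other 57 genes in grey and dotted lines at 0.2 above and below 0. At each stage 51 to 57 genes lie within the dotted lines, and Prpf18 is the lowest at 40 and 50 min, at -0.35 and -0.38.

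Other splicing genes, from a list of snRNP core, LSm, helicase and regulator genes chosen with results of these data known, were counted in the same way. Of 93 on the list 89 were measured. At 40 min 57, 37 and 33 were higher and 0, 0 and 2 lower in CCNA-GFP, -IAA and +IAA, with medians of 0.41, 0.31 and 0.29, where 49.3%, 43.5% and 40% of all genes were higher and the medians of all genes were 0.26, 0.28 and 0.24. The counts in CTCF-AID are thus at or near the background. At 60 min 87, 68 and 66 were higher and 0, 1 and 2 lower (medians 1.05, 0.62 and 0.60), where 88.3%, 72.8% and 70.4% of all genes were higher (medians 0.79, 0.58 and 0.58). From 60 to 120 min 32, 35 and 35 fell and 4, 2 and 3 rose, where 28.5%, 33.2% and 33.1% of all genes fell. Over the 8 comparisons of +IAA with -IAA the list gave 1 call, lower in asynchronous cells.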

How the data were processed

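Per the labels and the paper's methods, the authors depleted ribosomal RNA, built stranded libraries, sequenced both ends and ran RSEM on a Gencode annotation to which each gene's pre-mRNA was added as an isoform; the submitters' processing notes name STAR, RSEM and mm10. The deposited tables hold TPM of the pre-mRNA isoform, filtered by the authors at 0.5 TPM, and no counts. All 19 and 36 columns were used (0 left out).

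Tests used limma 3.58.1 in R 4.3.3 on log2(TPM + 1) with a pseudocount of 1, in 1 fit per table (residual degrees of freedom 8 and 20), over all 9911 and 10237 genes with Benjamini-Hochberg adjustment, called at 0.05 for stages and at 0.1 with a log2 difference over 0.2 for IAA. The CCNA-GFP fit has the replicate number as a block. The CTCF-AID fit has none, although equal numbers pair the libraries: deviations from group means correlated above 0.1 in 20 of 20 and 88 of 88 pairs of groups (lowest r 0.13 and 0.11, median 0.52 in both). The combined IAA call needed asynchronous cells or at least 2 time points. Alternatives were a pseudocount of 0.1, leaving out genes averaging under 1 TPM (6808 and 7523 remained), every library at the same total, division by each library's step (0.01 TPM times a factor), the block and each replicate left out. The 50 min CCNA-GFP library entered no call. On simulated data with 200 genes shifted by a log2 value of 1, 87.5% were recovered in CCNA-GFP at 60 min against mitosis, with 4.37% false calls, and 92.0% in CTCF-AID +IAA against -IAA at 60 min, with 10.2% false calls. The simulated libraries were independent and each gene had the same mean at every stage, unlike the real ones. The shift is also above the largest IAA difference among the 58 (0.39). These percentages therefore do not say how often differences of that size would be called.

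The members and lists were chosen with earlier results of these data known. Genes named one by one are 26 fixed by role (24 listed), the 3 with the largest and the 3 with the smallest change at 60 min, those called in the combined IAA comparison (0), and up to 3 that fell and 3 that rose most from 60 to 120 min in CCNA-GFP; exceptions are named as such. Some single-gene results are not reported here. Positions are from Gencode vM21 on GRCm38, and promoters from RefSeq on GRCm38.p6. The other steps used matplotlib 3.10.9, scipy 1.17.1, pandas 2.3.3 and numpy 2.4.6 under Python 3.11.15.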

Additional observations from a re-analysis of the deposited data

How the results depend on the processing

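Values here are totals of called splicing genes in either direction, and those not given stayed within 1.5 times under the alternatives, although at the same total they mix higher and lower calls, as the report gives. The cause of the changes given here was not tested. At the same total the counts became 29 at 40 min, 34 at 90 min, 29 at 120 min, 29 for asynchronous against mitosis and 35 for 60 min against asynchronous in CCNA-GFP; 35 at 50 min, 37 at 120 min and 32 for asynchronous against mitosis without IAA; and 33 at 60 min, 27 for asynchronous against mitosis and 31 for 60 min against asynchronous with IAA. With division by the step they were 9 at 30 min, 34 for 60 min against asynchronous and 12 for 120 against 60 min in CCNA-GFP, 14 at 120 min and 18 for asynchronous against mitosis without IAA, and 20 for asynchronous against mitosis and 32 for 60 min against asynchronous with IAA. At 30 min a pseudocount of 0.1 and the filter at 1 TPM gave 3 calls each. Without the replicate block CCNA-GFP gave 22 at 40 min and 8 for 120 against 60 min. With the replicate block CTCF-AID gave 15 and 21 for asynchronous against mitosis and 45 and 44 for 120 against 60 min (-IAA, +IAA), and the block changed no other count by over 1.5 times except the IAA comparison at 50 min. For +IAA against -IAA, the same total gave 1 call at 50 min, 1 in asynchronous cells and 1 combined, and the replicate block gave 1 at 50 min, all Prpf18.

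At the same total these changes against mitosis turned negative. At 40 min Srsf11 gave -0.044, -0.067 and -0.048 (CCNA-GFP, -IAA, +IAA). At 60 min Hnrnpc gave -0.023, -0.32 and -0.34, Hnrnpd -0.17, -0.33 and -0.31, Hnrnpk -0.066, -0.20 and -0.053, Hnrnpl -0.15, -0.36 and -0.29, and Hnrnpr -0.24, -0.38 and -0.39. U2af1 gave -0.073, -0.21 and -0.19 and U2af2 -0.059, -0.20 and -0.31. Prpf31 gave -0.58 in CCNA-GFP, Snrnp70 -0.23 and -0.39 in CCNA-GFP and -IAA, and in -IAA and +IAA Srsf3 gave -0.35 and -0.23 and Srsf7 -0.30 and -0.032.

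Leaving out each replicate in turn, which can leave a stage with 1 library that is then assumed to vary like the other groups, gave these ranges. In CCNA-GFP they were 0 to 4 calls at 30 min, 32 to 40 at 40 min, 56 to 58 at 60 min, 57 to 58 at 120 min, 34 to 50 for asynchronous against mitosis, 35 to 55 for 60 min against asynchronous and 5 to 30 for 120 against 60 min. Without IAA they were 5 to 36 at 40 min, 38 to 53 at 50 min, 27 to 56 at 60 min, 6 to 25 at 120 min, 0 to 7 for asynchronous against mitosis, 16 to 53 for 60 min against asynchronous and 0 to 31 for 120 against 60 min. With IAA they were 5 to 32, 41 to 54, 33 to 56, 6 to 28, 1 to 9, 14 to 52 and 0 to 28 in the same order. The low ends came without replicate 1 in CTCF-AID. Without replicate 1 the residual degrees of freedom fell to 1 in CCNA-GFP and 4 in CTCF-AID. No share of all genes stands beside the ranges, so they do not show whether the 58 lost more calls than the whole table. Depth could not be weighed, since TPM hold no counts.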
